A study of Mus musculus with 3 samples.

Results

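Genes that move sodium, protons, bicarbonate, chloride, calcium and phosphate across membranes were read out in the developing ureter, the muscular tube between kidney and bladder. They comprise 50 genes of 18194 named genes on the array, taken by symbol as the solute carrier families Slc4 (without the red cell gene Slc4a1), Slc8, Slc9, Slc12, Slc20, Slc24, Slc26 and Slc34 and the Atp1a and Atp1b subunits of the sodium pump. Only probe sets annotated to a lone symbol were taken, 98 in all, and where a gene had several, the one with the highest mean log2(signal + 1) stood for it. The rule takes genes by symbol and uses no measured value for that, but it was set with earlier results of these data known. The tissue was ureter of wild-type FVB/N mouse embryos of unstated sex at embryonic day 15 (Theiler stage 23), in 1 group of 3 unpooled samples called replicates 3, 8 and 9, with no second genotype, treatment or stage. RNA passed through 2 rounds of amplification before hybridisation to 1-colour Affymetrix arrays, whose deposited values are linear intensities scaled by the authors to a common trimmed mean. Whether the samples are separate embryos or litters is not stated in the labels. Their spread may therefore be technical, and with a lone group no difference could be tested.

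The sodium pump, a complex of a catalytic alpha and a glycosylated beta subunit, keeps sodium low and potassium high inside cells, and the carriers spend that gradient. Sodium brings chloride in through some Slc12 cotransporters, and drives protons out through Slc9 and calcium out through Slc8 and Slc24. It also carries bicarbonate with some Slc4 proteins and phosphate with Slc20 and Slc34. Members of Slc26 and other Slc4 proteins exchange chloride, bicarbonate, sulfate and iodide without sodium. In smooth muscle such as that of the ureter wall these carriers help to set cell calcium, pH and chloride, while several relatives are best known from the nephron, where they reclaim salt and phosphate from urine.

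Background on an array was the 95th percentile of 54 measured genes known from other organs (retina, testis, lens and pituitary among them). It equalled signals of 368, 379 and 431 on the arrays of replicates 3, 8 and 9. A gene was called above background when it exceeded that level on each of the 3 arrays. By this rule 19 of the 50 transporter genes (38.0%) were above background, against 55.0% of all named genes. A further 4 passed on 1 or 2 arrays and 27 on none. How bright a probe set is depends on its sequence as well as on the transcript. A transporter gene is therefore set here against background and against itself on the other arrays, and its level is not ranked against another's. Summed marker signals given below are weighted towards the brightest probe sets of each list. In whole tissue, fewer cells of a type and less RNA per cell cannot be told apart.

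**Figure D1:**
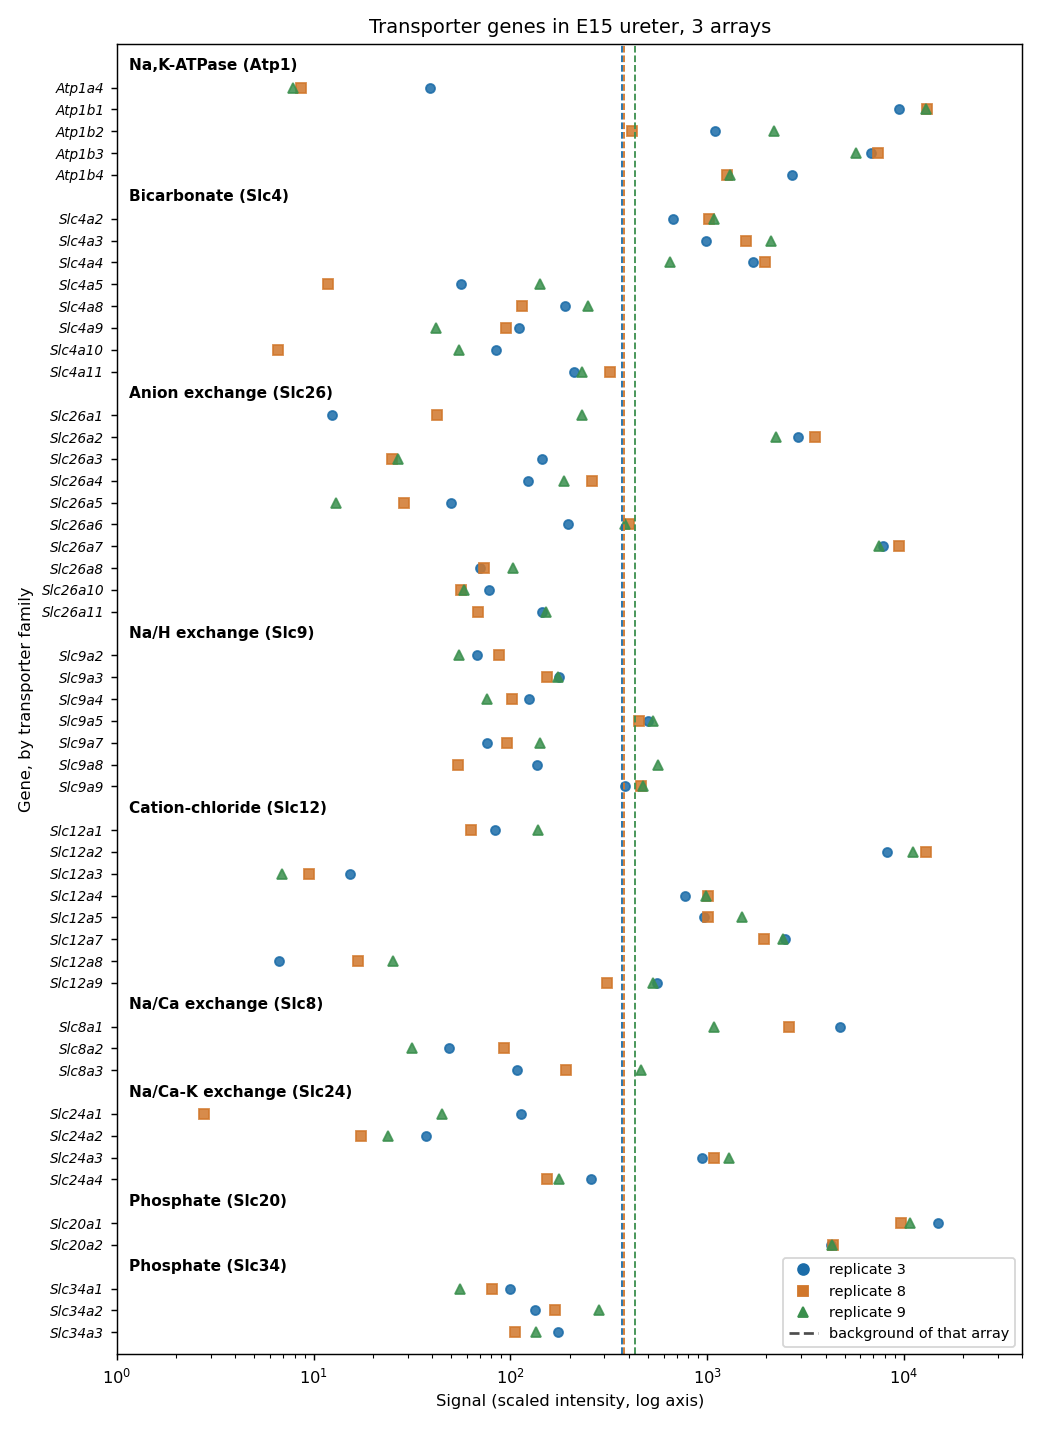
Signal (scaled intensity, log axis) of each of the 50 transporter genes on the 3 arrays, grouped by family, with the background of each array as a dashed line of the same colour. The 19 genes above background have each point to the right of the line of its own colour, and all 3 Slc34 genes lie to the left.

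To show the kind of sequence that lies at the start of genes on each side of the background line, the RefSeq promoters (GRCm38.p6, 250 bases before to 50 bases after the start) of 2 pairs of related genes are printed with each CG dinucleotide in capitals. The pairs were picked after the calls were known. In each pair the first gene was above background and the second, best known from the kidney tubule, was not. Slc20a1 lies at chr2:129198523-129198822 and Slc34a1 at chr13:55399398-55399697, and both carry phosphate with sodium. Slc12a7 lies at chr13:73763410-73763709 and Slc12a1 at chr2:125152350-125152649, and both carry chloride with cations. All 4 are on the plus strand.
Slc20a1: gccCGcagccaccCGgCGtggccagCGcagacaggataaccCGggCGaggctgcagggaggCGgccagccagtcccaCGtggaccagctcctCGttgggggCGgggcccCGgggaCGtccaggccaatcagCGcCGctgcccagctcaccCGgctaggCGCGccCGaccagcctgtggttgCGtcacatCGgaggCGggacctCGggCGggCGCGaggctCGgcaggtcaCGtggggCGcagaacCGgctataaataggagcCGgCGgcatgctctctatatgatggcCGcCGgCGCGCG
Slc34a1: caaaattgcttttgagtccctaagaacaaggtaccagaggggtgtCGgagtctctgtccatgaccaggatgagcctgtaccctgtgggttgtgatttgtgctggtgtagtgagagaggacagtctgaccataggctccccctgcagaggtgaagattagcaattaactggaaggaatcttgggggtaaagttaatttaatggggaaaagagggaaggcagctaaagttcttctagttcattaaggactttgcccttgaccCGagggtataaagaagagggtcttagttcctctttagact
Slc12a7: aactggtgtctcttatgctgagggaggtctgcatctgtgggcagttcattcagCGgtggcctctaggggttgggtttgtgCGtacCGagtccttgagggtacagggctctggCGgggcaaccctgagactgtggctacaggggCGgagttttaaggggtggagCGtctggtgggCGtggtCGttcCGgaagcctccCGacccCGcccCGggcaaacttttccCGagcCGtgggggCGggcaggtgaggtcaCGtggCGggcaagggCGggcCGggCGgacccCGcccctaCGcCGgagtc
Slc12a1: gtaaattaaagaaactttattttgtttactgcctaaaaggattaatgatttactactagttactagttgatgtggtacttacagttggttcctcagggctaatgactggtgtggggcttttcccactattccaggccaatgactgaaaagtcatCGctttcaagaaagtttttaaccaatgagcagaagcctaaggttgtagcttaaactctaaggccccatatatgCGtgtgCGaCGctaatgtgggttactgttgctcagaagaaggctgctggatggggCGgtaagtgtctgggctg
The Slc20a1 promoter holds 36 CG dinucleotides against 2 in that of Slc34a1, and the Slc12a7 promoter holds 23 against 5 in that of Slc12a1.

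Promoters of 40 of the 50 transporter genes were in the RefSeq table, 14 of genes above background and 26 of the others, the first listed start being used where a gene had several. The median was 25.5 CG dinucleotides in 300 bases above background and 8 in the others. The same contrast held across the array, with medians of 22 for 8128 named genes above background and 8 for 6241 others, so it is not particular to transporters. Exceptions lay on both sides. Atp1b4, Slc9a9 and Slc8a1 were above background with 5, 6 and 9 CG dinucleotides, whereas Slc34a2, Slc9a3 and Slc9a7 were not, with 30, 25 and 24. The letters GGGCGG, a GC box, were found on either strand in 10 of 14 promoters of transporter genes above background (71.4%) and 11 of 26 others (42.3%), close to the shares of 66.6% and 37.8% for all named genes with the same calls. The share among all 32851 promoters listed was 35.7%. The letters TATAAA, searched likewise, were found in 1 of 14 and 7 of 26, beside 7.12% and 13.4% of all named genes with those calls and 13.6% of all promoters. CCAAT was found in 4 of 14 and 13 of 26, beside 38.6% and 37.8% of named genes and 37.4% of all promoters. GGGCGG itself contains a CG, so these measures overlap, while TATAAA and CCAAT contain none. A match is a description of the sequence and not evidence of binding.

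**Figure D2:**
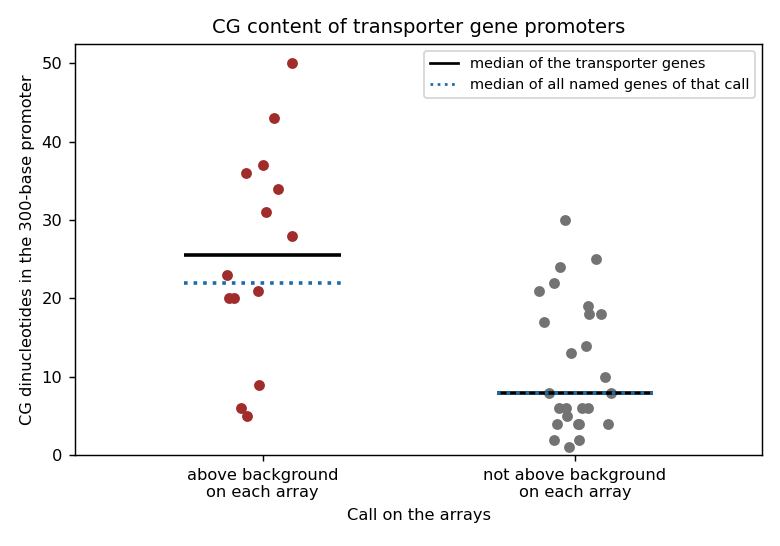
Number of CG dinucleotides in the 300-base promoter (vertical axis) for 14 transporter genes above background on each array and 26 that were not, 1 point per gene. Solid bars are the medians, 25.5 and 8, and dotted bars the medians of all named genes with the same call, 22 and 8.

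Of the Atp1 genes, 4 of 5 were above background, all of the Atp1b group. Catalytic subunits other than that of Atp1a4, a form known from sperm, were not analysed here. Atp1b1, the widely expressed beta subunit, had signals of 9455, 13087 and 12984 in replicates 3, 8 and 9. Its lowest array was 25.7 times background, and 4 of its 5 probe sets were above background on each array. Atp1b3, another beta subunit of many tissues, had signals of 6829, 7393 and 5703 in the same order of replicates, which differed little (SD 0.19 on the log2 scale, n = 3). Atp1b2, a beta subunit known from glia as an adhesion molecule, was uneven, with 1098, 413 and 2194. In replicate 8 it was 1.09 times background and in replicate 9 5.09 times. Atp1b4, whose product in placental mammals sits in the nuclear membrane of muscle and is not a pump subunit, had 2692, 1266 and 1299 and was highest in replicate 3. Atp1a4 was below background on every array (18.5 ± 17.8, SD, n = 3, as for all values given with ±).

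FXYD proteins are small membrane proteins that tune the sodium pump, and 4 of 7 measured were above background. Fxyd6 had signals of 1748, 3323 and 2971 in replicates 3, 8 and 9, Fxyd3 had 625, 1113 and 898, and Fxyd4 had 535, 1290 and 797. These 3 genes were lowest in replicate 3, and the remaining one, Fxyd1, was lowest in replicate 8 (692, 465 and 1122). Fxyd2, the gamma subunit of the kidney pump, was not above background on any array (137 ± 33.8).

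Of the cation-chloride cotransporter family Slc12, 4 of 8 genes were above background on each array. Slc12a2 encodes NKCC1, which loads cells with chloride, and had signals of 8155, 12902 and 11103 in replicates 3, 8 and 9, at least 22.1 times background. The potassium-chloride cotransporters take chloride out of cells. Slc12a4 (KCC1) had 773, 1007 and 989, and Slc12a7 (KCC4) had 2478, 1935 and 2431, with ranges of 0.38 and 0.36 on the log2 scale. Slc12a5 encodes KCC2, known as the chloride extruder of neurons, and had 967, 1010 and 1501, the highest value being that of replicate 9. Slc12a9, an orphan relative, was above background in replicates 3 and 9 but at 0.815 times background in replicate 8 (464 ± 135). The tubular cotransporter genes Slc12a1 (NKCC2, 94.9 ± 38.9) and Slc12a3 (NCC, the thiazide target, 10.6 ± 4.30) and the gene Slc12a8 (16.3 ± 9.38) were below background on every array. The WNK kinases and their targets SPAK (Stk39) and OSR1 (Oxsr1) phosphorylate these cotransporters, and all 6 measured genes of that list were above background. Wnk1 had signals of 28114, 27931 and 23281, Oxsr1 had 5224, 7616 and 3791, and Stk39 had 5060, 7498 and 2769, the last pair being highest in replicate 8 and lowest in replicate 9.

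Among bicarbonate carriers of the Slc4 family 3 of 8 genes were above background. Slc4a2 (AE2), a chloride-bicarbonate exchanger of many cells, had signals of 668, 1016 and 1085 in replicates 3, 8 and 9. Slc4a3 (AE3), its relative of heart and brain, had 989, 1582 and 2121, the highest array being 2.14-fold the lowest. Slc4a4 (NBCe1), a sodium-bicarbonate cotransporter, had 1709, 1972 and 649 and was lowest in replicate 9, where it stood at 1.5 times background. Both Slc4a2 and Slc4a3 were lowest in replicate 3. The order for Slc4a4 is that of the probe set used. Its other probe sets, none above background on each array, differed, some being lowest in replicate 3 and some in replicate 9. The other 5 were below background on every array. They were Slc4a10, a carrier of choroid plexus and neurons (48.6 ± 39.2), Slc4a5 (69.9 ± 65.8), Slc4a9, known from the collecting duct (82.5 ± 36.0), Slc4a8, known from neurons (184 ± 66.0), and Slc4a11, known from the corneal endothelium (255 ± 58.6).

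In the Slc26 family of anion transporters 2 of 10 genes were above background. Slc26a7, an anion transporter known from kidney, stomach and thyroid, had signals of 7831, 9464 and 7440.5 in replicates 3, 8 and 9, at least 17.3 times background, from 1 of its 2 probe sets. Slc26a2, the sulfate transporter that supplies sulfate for proteoglycans and whose loss disturbs cartilage, had 2893, 3535 and 2229. Among 5 cartilage markers, 2 were above background, and the summed signal of all 5 was 7064, 10226 and 6110 in replicates 3, 8 and 9. Most of that sum came from Col9a1 (4887, 7552 and 4433). Col9a1 and Hapln1 (1188, 1975 and 916), the 2 above background, were like Slc26a2 highest in replicate 8 and lowest in replicate 9. This order was not particular to cartilage markers. The transporter genes Slc26a7, Atp1b3 and Slc4a4 had it, as did the mesenchyme and muscle markers Tbx18 and Actg2 and the urothelial marker Krt18. Matn1, below background on every array, was also highest in replicate 8 (142, 303 and 141). Col2a1, below background on every array, was lowest in replicate 8 (281, 188 and 396). Acan, above background on 1 array only, was highest in replicate 3 (566, 209 and 224). The part of cartilage in the Slc26a2 signal was not tested. Slc26a6, an exchanger of chloride, oxalate and bicarbonate, passed background in replicate 8 only (327 ± 114). The other 7 were below background on every array. They include Slc26a4, the gene of pendrin in thyroid and inner ear (190 ± 68.2), Slc26a3, the chloride exchanger of the colon (65.6 ± 68.8), Slc26a5, the gene of prestin in outer hair cells (30.6 ± 18.6), and the sulfate transporter gene Slc26a1 (95 ± 118). Slc26a8, known from testis, had 82.3 ± 18.2, Slc26a10 had 63.9 ± 11.8 and Slc26a11 had 121 ± 45.7.

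In the sodium-proton exchanger family Slc9 2 of 7 genes were above background, both close to the line. Slc9a5, an exchanger known from brain, had signals of 500, 450 and 532 in replicates 3, 8 and 9, at least 1.19 times background. Slc9a9, an exchanger of recycling endosomes, had 384, 462 and 474, at least 1.04 times background, which made it the gene just inside the threshold as Slc12a9 was just outside. Slc9a8, of the Golgi, had 137, 54.2 and 561 and passed in replicate 9 only. The epithelial exchanger genes Slc9a2 (70.0 ± 16.5), Slc9a3 (169 ± 12.7) and Slc9a4 (101 ± 24.7) and the gene Slc9a7, of the trans-Golgi network (105 ± 33.3), were below background on every array. Slc9a2 and Slc9a4 are neighbours on chromosome 1. Other exchangers of this family were not analysed here.

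Proteins that anchor or assist the exchangers were above background for 4 of 5 measured genes. Slc9a3r1, the scaffold NHERF1, had signals of 14110, 12817 and 14511 in replicates 3, 8 and 9, with all 3 probe sets above background, although Slc9a3, whose product it was named for, was not above background. Ezr, the gene of ezrin, which links that scaffold to actin, had 4366, 4961 and 5004. Carbonic anhydrases make bicarbonate and protons from carbon dioxide, and 5 of 7 were above background. Car2, also abundant in red cells, had 45255, 31297 and 43076, Car3 had 26867, 34964 and 30706, and Car13 had 1108, 1513 and 772. Of 9 proton pump genes the 4 above background were Atp6v1a, Atp6v1b2, Atp6ap1 and Atp6v0a1, all of the vacuolar pump. Atp6v1a had 9417, 11689 and 8296. Those known from acid-secreting or bone-resorbing cells were below background on every array, such as Atp6v1b1 (32.4 ± 31.4), Atp6v0a4 (53.2 ± 25.7) and the gastric pump gene Atp4a (162 ± 48.6).

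Calcium exchangers were above background for 1 of 3 Slc8 and 1 of 4 Slc24 genes. Slc8a1 (NCX1), the exchanger of heart and smooth muscle, had signals of 4710, 2599 and 1087 in replicates 3, 8 and 9, a 4.33-fold spread. Slc24a3, a potassium-dependent exchanger known from brain and smooth muscle, had 940, 1079 and 1285. The first was highest in replicate 3 and the second in replicate 9. Slc8a3, of brain and skeletal muscle, passed background in replicate 9 only (254 ± 185), and Slc8a2, of brain, on no array (57.8 ± 31.4). Slc24a1, of rod photoreceptors (53.9 ± 56.0), Slc24a2 (26.1 ± 10.1) and Slc24a4 (195 ± 53.7) were below background on every array. Of 7 calcium pump genes 2 were above background, Atp2a2 of the endoplasmic reticulum (26674, 25989 and 33760) and Atp2b1 of the plasma membrane (1937, 5652 and 2851).

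Phosphate carriers divided by family. Both Slc20 genes, whose products are sodium-phosphate cotransporters of most cells and serve as retrovirus receptors, were above background. Slc20a1 had signals of 14972, 9626 and 10690 in replicates 3, 8 and 9, at least 24.8 times background. Slc20a2 had 4233, 4370 and 4297, the narrowest range of the 19 genes (0.05 on the log2 scale). All 3 Slc34 genes were below background on every array, Slc34a1 of the proximal tubule with 78.7 ± 22.0, Slc34a2, known from lung, with 194 ± 78.1, and Slc34a3, of the proximal tubule, with 138 ± 34.3. Of 8 genes of phosphate export and its hormones 4 were above background. Xpr1, the phosphate exporter, had 3234, 3170 and 3613, Ank, a transporter linked to pyrophosphate release, had 7724, 3898 and 5166, and Pth1r, the parathyroid hormone receptor gene, had 1785, 2608 and 3070. The hormone gene Fgf23 (75.3 ± 37.1) and its co-receptor gene Kl (70.8 ± 24.7) were below background on every array.

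Over all 8 lists of regulators and partners 29 of 56 measured genes (51.8%) were above background, against 55.0% of all named genes. The 7 channel genes that work beside these carriers in salt-moving epithelia were above background on all arrays in 0 cases. Scnn1b and Scnn1g, subunit genes of the epithelial sodium channel, passed on 1 array each (362 ± 82.0 and 330 ± 212), and the chloride channel gene Cftr on none (172 ± 135). No test is attached to this count, since the series has no second group.

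Among the 19 transporter genes above background the median of the genes' SDs was 0.33 (log2 scale, n = 3 samples), beside 0.28 for all 10008 named genes above background. A log2 range of at least 1 between the lowest and the highest array was found for 5 of 19 (26.3%), against 14.4% of all genes above background. These were Atp1b2 (range 2.40), Slc8a1 (2.11), Slc4a4 (1.6), Slc4a3 (1.10) and Atp1b4 (1.09), and 14 genes varied less. Without replicate 9 the count was 2 of 19 and without replicate 3 it was 3, beside 6.42% and 6.58% of all genes above background. A range over fewer arrays is narrower by construction. After each array's median deviation was taken off, replicate 9 held the highest value of 11 of the 19 genes (57.9%), replicate 8 that of 5 and replicate 3 that of 3. Over all genes above background these shares were 35.4%, 32.6% and 32.0%. With quantile normalization 8 of 19 were highest in replicate 9.

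**Figure D3:**
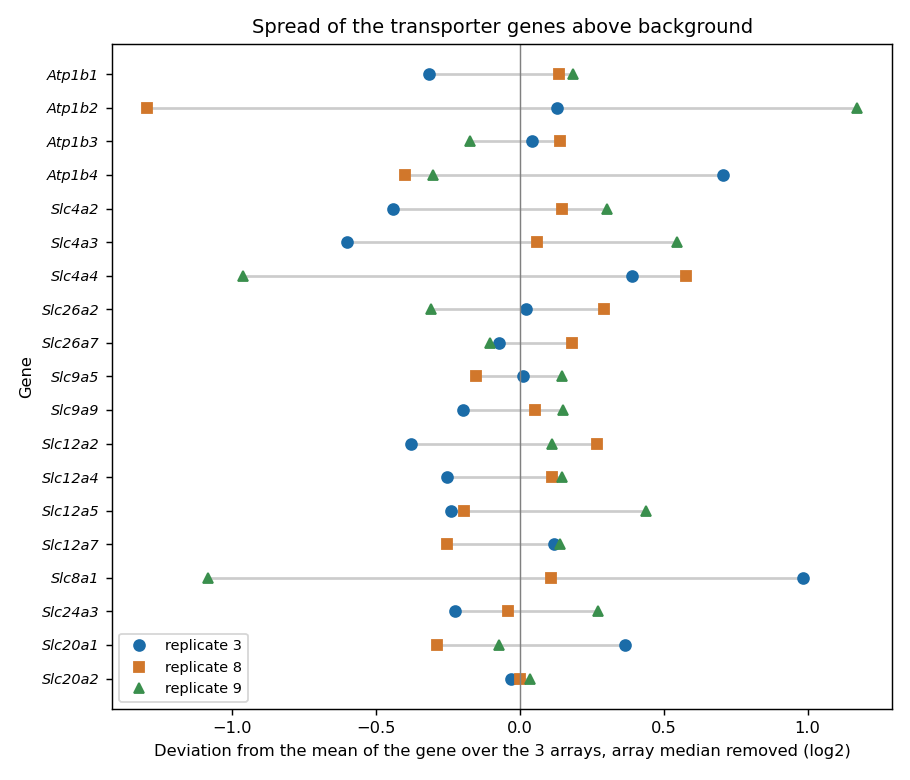
Deviation of each of the 19 transporter genes above background from its own mean over the 3 arrays (log2 scale, array median removed), 1 point per replicate joined by a grey line. Atp1b2, Slc8a1 and Slc4a4 spread the most, and Slc20a2 points nearly coincide.

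Cell type markers were read beside the uneven genes. Of 6 markers of ureteric mesenchyme and smooth muscle 5 were above background, Tbx18, Acta2, Tagln, Myh11 and Actg2. Of 7 urothelial markers 4 were, Upk1b, Foxa1, Gata3 and Krt18, a share near the 55.0% of all named genes, while Upk3a passed on 1 array and Upk1a and Upk2 on none. Of 6 nephron tubule and podocyte markers 1 was above background, Hnf4a (7540, 3236 and 6701 in replicates 3, 8 and 9). The other 5 passed on no array. Of 4 collecting duct markers 1 was above background, Calb1. All 4 erythroid, 5 hepatocyte, 5 skeletal muscle, 4 macrophage and 4 endothelial markers measured were above background, so these counts do not set the ureter's own cells apart from other tissues. No marker was listed at 0. The summed signal of 5 neuron and glia markers, 3 of them above background, was 4498, 9794 and 12834 in replicates 3, 8 and 9. Slc4a3 and Slc12a5 were, like that sum, lowest in replicate 3 and highest in replicate 9. This order was not particular to them, since Slc4a2, Slc9a9 and Slc24a3 had it too. With the array median taken off, Atp1b1, Slc12a4 and Slc20a2 also had it. Of the 5 markers 2 had it, Stmn2 (1425, 5676 and 6761) and Fabp7 (1121, 1533 and 3363). Elavl4 was highest in replicate 8. Tubb3 was highest there by signal (144, 552 and 536). With the array median taken off, its deviations were -1.283, 0.634 and 0.654, so that replicate 9 was narrowly highest. Atp1b2 was lowest in replicate 8, as was the glial marker Sox10, which was above background on 1 array only (307, 206 and 632). The macrophage marker Csf1r (8111, 5183 and 17559) was lowest there too, and like Atp1b2 highest in replicate 9. Hnf4a was also lowest in replicate 8. So were the summed signals of the 4 macrophage (19231, 11440 and 25558), 4 erythroid (115490, 56434 and 80396) and 5 hepatocyte markers (191315, 108386 and 154943). Slc8a1 was highest in replicate 3 and lowest in replicate 9, as were 2 of the 6 mesenchyme and muscle markers, Tagln (1928, 1654 and 613) and Myh11 (1647, 1620 and 465). Of the other 4, Tbx18, Actg2 and Cnn1 were highest in replicate 8 and Acta2 in replicate 9 (32411, 27441 and 35287). The urothelial marker Upk1b and the endothelial markers Cdh5, Tek and Sox18 were, like Slc8a1, highest in replicate 3 and lowest in replicate 9. The summed signal of all 6 mesenchyme and muscle markers was 46861, 54820 and 46214, and that of the 4 endothelial markers 12010, 9438 and 6606. The summed signal of the 5 skeletal muscle markers was 108313, 89506 and 99607. Like Atp1b4, Acta1 and Mylpf were highest in replicate 3, whereas Myh3 and Actc1 were highest in replicate 9 and Myog in replicate 8. The part of cell composition in these differences was not tested.

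Several genes had probe sets with unlike readings. Of the 19 genes above background 14 had several probe sets, and in 13 of these at least 1 probe set was not above background. For Slc4a4, the probe set used read 1709, 1972 and 649 in replicates 3, 8 and 9, whereas another read 37.0, 253 and 663 and another 12.4, 364 and 457. The probe set used was thus lowest in replicate 9, where these were highest, and the remaining 2 Slc4a4 probe sets were lowest there too. Slc8a1 read 4710, 2599 and 1087 for the probe set used and 14.2, 81.4 and 180 for another, which stayed below background, while a further one was lowest in replicate 9 (138, 91.9 and 49.3). For Slc26a2 the probe set used was lowest in replicate 9 (2229) and another was highest there, with 152, 425 and 832. The other probe sets of Slc12a2 read 64, 141 and 460 and 170, 319 and 465, each highest in replicate 9. Apart from those used, none of these probe sets was above background on each array, so no order of replicates is drawn from them. When a gene was represented by the mean of its probe sets, Atp1b2, Slc4a4, Slc8a1, Slc9a5, Slc9a9, Slc12a5 and Slc20a1 were no longer above background. Then 12 of 50 genes were, beside 45.9% of all named genes. Atp1b1 and Slc20a2 were the genes with several probe sets above background, and the lesser Slc20a2 probe set read 640, 721 and 742. Control probe sets at both ends of a transcript, a measure of transcript coverage, gave 3′ to 5′ ratios for Actb of 7.45, 6.50 and 4 in replicates 3, 8 and 9 and for Gapdh of 18.9, 15.1 and 16.4. The part of transcript coverage in the probe set differences was not tested.

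**Figure D4:**
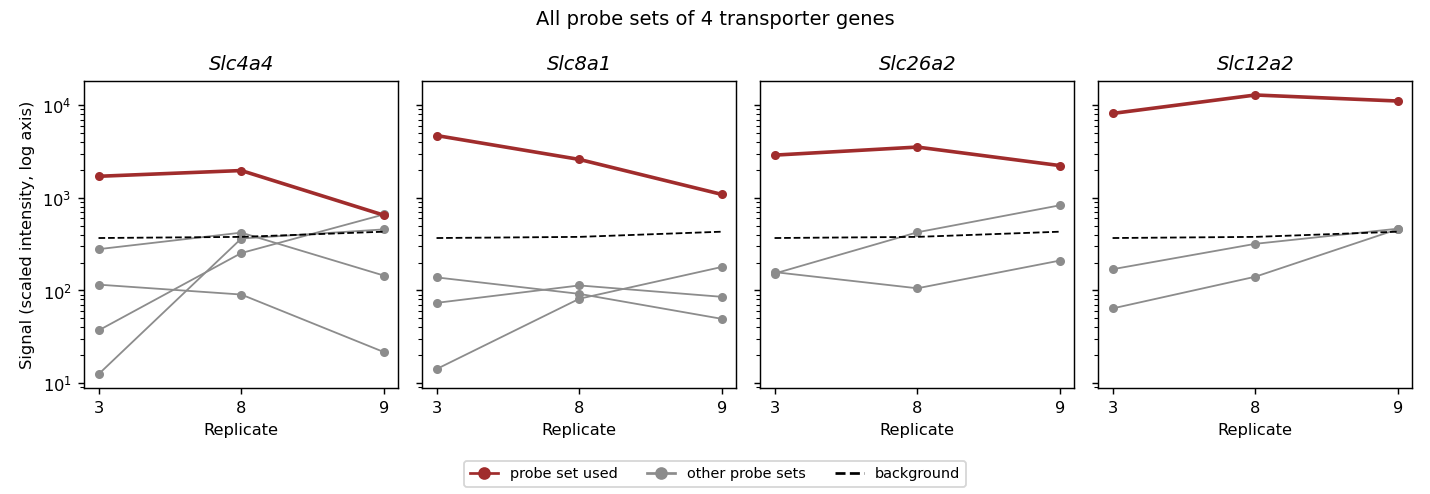
Signal (scaled intensity, log axis) of every probe set of Slc4a4, Slc8a1, Slc26a2 and Slc12a2 in replicates 3, 8 and 9, the probe set used in red, the others in grey and background dashed. Lines join values of 1 probe set and the replicates have no order. In Slc4a4, Slc8a1 and Slc26a2 the red line is lowest in replicate 9 while at least 1 grey line is highest there.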

How the data were processed

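Gene expression was measured in 3 ureter samples of 1 group. The deposited values are linear intensities, 1 per probe set and array, made by the authors with GCOS per the submitters' processing notes; its version is not given in the sources used here, nor are its algorithm and settings. The 2% trimmed mean was 1500 on every array after rounding, so arrays share a scale, and medians were 234, 198 and 273 in replicates 3, 8 and 9. Detection calls were not used here, and precision is limited by how few arrays there are. Of 45101 probe sets, 34958 had 1 gene symbol in the platform annotation, 932 several, and 9211 are not named here. All 50 transporter genes matched the GRCm38.p6 gene table by Entrez ID, with no symbol changed. Values were analysed as log2(signal + 1) with Python 3.11.15, numpy 2.4.6 and pandas 2.3.3. The accuracy of calls close to background was not tested. Of the 54 genes that set background, 1 (Cela1) was above it on each array, and Cpa1, Cbln1 and Car8 were on 2 arrays. Some genes must exceed a percentile of their own list, so this count is no check of that list. The transporter genes and all lists (background, regulators, markers) were chosen with earlier results of these data known. Every transporter gene is accounted for, and up to 3 regulators per list with the highest means above background are named, plus partners of a gene discussed. Others, and the probe set contrasts, were picked with their values in view. Results were recomputed without each replicate, after quantile normalization, at pseudocounts of 16 and 64, with a mean over probe sets, with no _x_at or _s_at probe sets, with other background rules and with no filter on low values.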

Additional observations from a re-analysis of the deposited data

How the results depend on the processing

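Of 19 transporter genes called, 11 were above background in all 12 alternatives that bear on the call (Atp1b1, Atp1b3, Atp1b4, Slc12a2, Slc12a4, Slc12a7, Slc20a2, Slc24a3, Slc26a2, Slc26a7 and Slc4a3). Of 31 not called, 30 stayed so, and Slc12a9 was gained in 4 alternatives. With the mean of probe sets 12 genes were above background, 2 of them with a log2 range of at least 1 and 7 highest in replicate 9, since dim probe sets lower the mean. Of all named genes 45.9% were then above background, 16% of these with such a range. At the 99th percentile for background these counts were 14, 3 and 7, and Atp1b2, Slc4a2, Slc4a4, Slc9a5 and Slc9a9 were no longer called. The shares over all named genes were then 46.5% above background and 11.9% of these with such a range. Without a filter on low values 25 of 50 genes had a range of at least 1 (34.6% of all named genes). Leaving out each replicate gave 19 to 20 genes above background, beside 56.1% to 57.1% of all named genes. A log2 range of at least 1 was then found for 2 to 4 (2 without replicate 9, 3 without replicate 3), beside 6.42% to 7.81% of all named genes above background. The median SD was 0.18 to 0.32, with 40 to 42 array values and 29 to 31 regulators and partners above background. Without replicate 8, 12 genes were highest in replicate 9, and without replicate 3, 13 were. Only 2 arrays were compared there, so these counts cannot be set beside the 11 of 19 over 3 arrays. No paired analysis was possible because the samples form 1 group. No depth is defined for these intensities, and genes within 2 times background (5 of the 19) are the least certain calls.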
